A study of Gasterosteus aculeatus with 12 samples.

Results

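Sites at which the 12 embryos of 1 stickleback cross were called with all 3 genotypes were described here. These were single-base sites, chosen by the share of reads with the alternate base in each embryo. The reads were of RNA, so an embryo that expressed only 1 of its 2 alleles would be called homozygous. A site was taken if all 12 embryos had more than 12 reads there, if at most 5% of its raw reads were of low mapping quality, and if it lay outside chromosome XIX, the sex chromosome, and outside unplaced sequence. An embryo was called homozygous reference at an alternate share of 2% or less, heterozygous from 20% to 80%, and homozygous alternate at 98% or more. Every embryo needed a call, and each of the 3 genotypes had to occur at least 1 time. This rule left 3668 sites, which were 4.58% of the 80156 sites with a call in every embryo and 1.14% of the 321670 sites listed for all 12 embryos.

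The samples were 12 whole embryos of threespine stickleback (Gasterosteus aculeatus), all of 1 group, from a cross between a low-spine anadromous fish of the Little Campbell River (LITC) and a high-spine fish. The high-spine line descended from a cross of Boulton and Bodega Bay fish and was selected for high spine number, and the sexes and spine counts of the parents of these embryos were not given in the sources used here. Embryos were fertilized in vitro, raised without further treatment to 72 hours post fertilization (stages 19 to 20) and frozen, and 1 stranded mRNA library was made from 200 ng of total RNA of each. There was no control group, the parents were not among the samples, and the embryos were siblings, so that each comparison below is between genotypes within 1 family. A whole embryo mixes all tissues, so fewer cells of a type and less RNA per cell cannot be told apart in its read counts.

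In a cross, a site shows both kinds of homozygote among the offspring only when each parent carries both bases. Such a site is informative for both parents: the offspring then fall into reference homozygotes, heterozygotes and alternate homozygotes, which Mendel's first law puts at 25%, 50% and 25%. Heterozygotes carry both alleles in the same cells, where differences that act on the allele itself (cis) give unequal reads, whereas depth in the homozygotes also takes in differences that act through shared factors (trans). Neighbouring sites are inherited together on the 4 parental chromosome copies until a crossover in a parent's germ line exchanges them.

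The deposited tables hold read counts for the reference and the alternate base. They summed to between 16302333 and 27003127 reads over the sites listed per embryo. Between 302391 and 513333 of these reads fell on the 3668 sites. The mean depth of a site per embryo ranged from 16.7 to 8339 reads with a median of 61.5, and the median depth of an embryo over the sites lay between 41 and 75 reads.

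Genotypes over the 3668 sites stood close to the Mendelian shares, in sum and in each embryo. Of 44016 calls, 11257 were homozygous reference (25.6%), 21987 heterozygous (49.95%) and 10772 homozygous alternate (24.5%), and the alternate base made up 49.4% of all allele copies. These shares are a description without a test, since the calls chose the sites. The heterozygous share of an embryo ran from 48.2% (embryo 9) over a median of 49.97% to 51.6% (embryo 8), and was 49.95% ± 1.08 (SD, n = 12). Homozygous reference calls made up 25.6% ± 1.03 of an embryo's sites and homozygous alternate calls 24.5% ± 1.42 (SD, n = 12). Embryo 12 had the lowest share of reference homozygotes (23.5%) and the highest of alternate homozygotes (27.5%), and embryo 6 had nearly the reverse (27.4% and 23.3%).

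**Figure D1:**
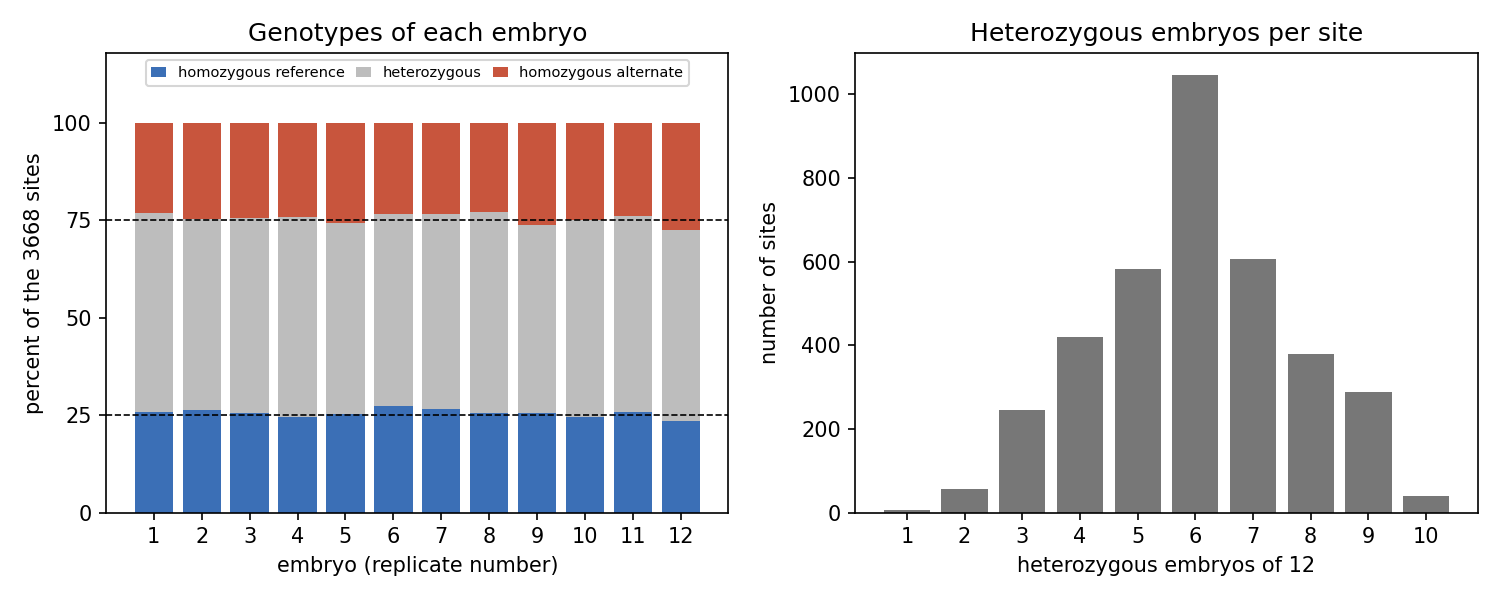
Left, percent of the 3668 sites (y axis) at which each embryo (x axis) was called homozygous reference, heterozygous or homozygous alternate, with dashed lines at 25% and 75%. Right, number of sites (y axis) by the number of heterozygous embryos of 12 (x axis), which was most often 6 (1046 sites).

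Per site the number of heterozygous embryos ranged from 1 to 10, with 6 as the median and the most frequent value, at 1046 sites (28.5%). Only 5 sites had 1 heterozygous embryo and 40 had 10, the largest number the rule allows. The most frequent set of counts was 2 homozygous reference, 6 heterozygous and 4 homozygous alternate embryos, at 306 sites. The exact Mendelian set of 3, 6 and 3 embryos was found at 205 sites (5.59%). Reference homozygotes outnumbered alternate homozygotes at 1684 sites, were fewer at 1585 and equalled them at 399. All 3 genotypes were seen in at least 2 embryos at 2455 sites, whereas at 1213 sites (33.1%) a genotype rested on 1 embryo.

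Most homozygous calls held no read of the other base. No alternate read was counted in 97.3% of homozygous reference calls, and no reference read in 84.7% of homozygous alternate calls. The rule allows at most 2% of such reads in a homozygous call, which at low depth means none. These shares were therefore set in part by the rule and do not measure how sharp the calls were. In heterozygous embryos the alternate share pooled per site had a median of 49.0% and a range from 23.8% to 74.8%, and 3432 sites (93.6%) lay between 40% and 60%. It was below 50% at 2147 sites and above it at 1465. Summed over sites, 51.1% of the reads of heterozygous embryos had the reference base. The median share of an embryo lay between 48.2% and 49.2% in all 12 embryos, so that no embryo centred on or above 50%.

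Values just inside and just outside the limits of the calls met without a gap. The highest share called homozygous reference was 2% and the next share, without a call, was 2.06%. Below the heterozygous range the nearest values were 19.7% outside and 20% inside, and above it 80% inside and 80.6% outside. The nearest values at the homozygous alternate limit were 97.99% outside and 98% inside. A further 619 sites had all 3 genotypes in 11 embryos and no call in the twelfth, and at 534 of them (86.3%) the uncalled share lay between 80% and 98%. Among these 619 sites, more were thus kept out by a share on the alternate side than on the reference side. Whether the heterozygous or the homozygous limit kept a site out was not separated. At 146 of the 3668 sites the shallowest embryo had 13 reads, the least the rule allows.

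The sites were spread unevenly over the 20 chromosomes considered. Counts ran from 9 on chromosome XX to 470 on chromosome IX, with a median of 129.5. Relative to sites with a call in every embryo, they ran from 2.66 per 1000 on chromosome XX to 95.7 per 1000 on chromosome XII, with a median of 35.6. Chromosomes IX, XII, I, III and XIV together held 1976 of them (53.9%) but 29.6% of the sites with a call in every embryo. Chromosomes II, IV, VIII, XI, XIII, XV and XXI each held between 43 and 67 of them, with 2084 to 5019 sites with calls. None was found on the mitochondrial sequence, which passes through the mother alone, where 20 sites had calls.

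**Figure D2:**
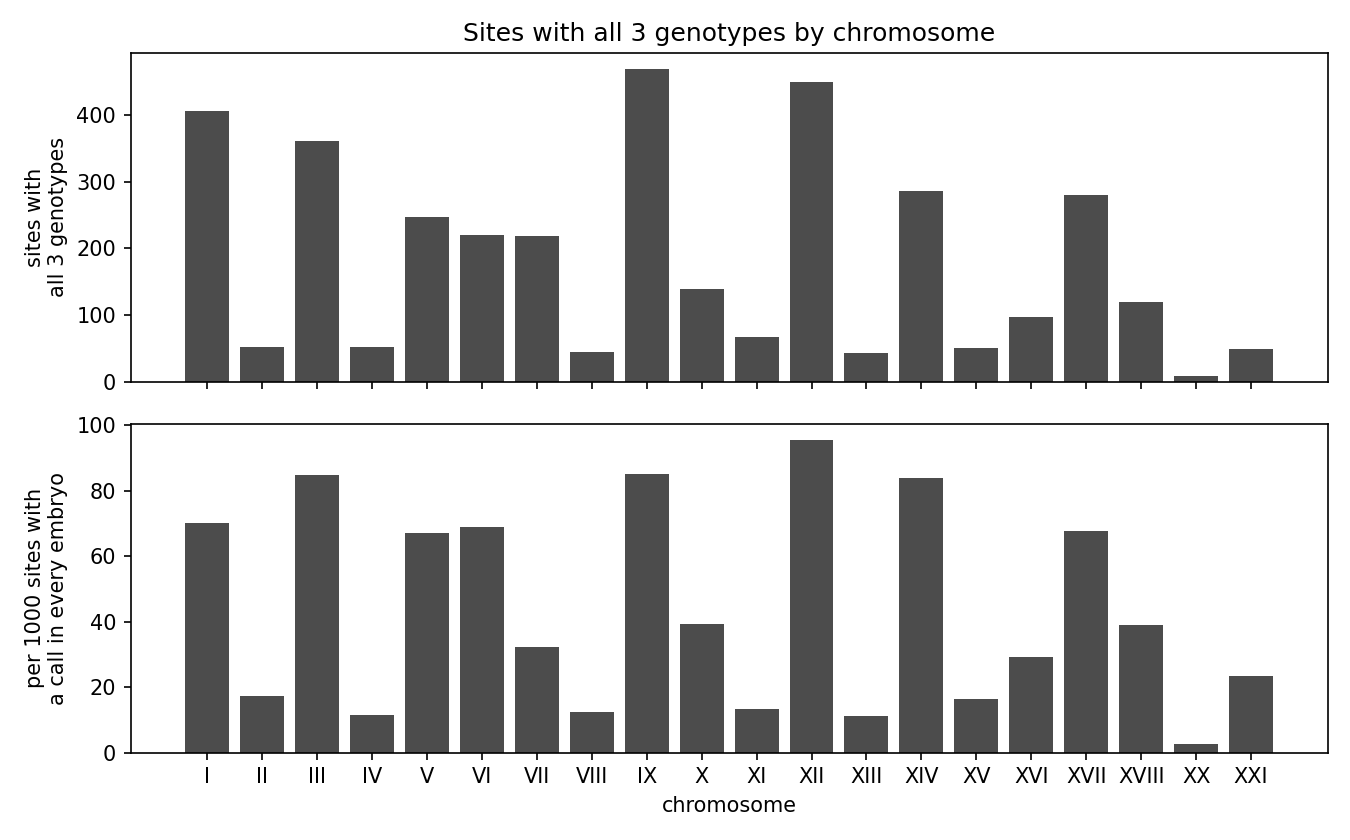
Number of sites with all 3 genotypes (top, y axis) and their number per 1000 sites with a call in every embryo (bottom, y axis) for each of 20 chromosomes (x axis). Chromosome XX had the fewest by either measure (9 and 2.66 per 1000), and chromosome XII the most per 1000 (95.7).

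Within chromosomes the sites lay in blocks with long stretches between them. Of 414 windows of 1 Mb with at least 20 called sites, 195 (47.1%) held none, although these windows held 40.7% of all sites with calls. Only 56 windows held 50% of the sites. The longest stretch of empty windows lay on chromosome IV from 4000001 to 23000000, 19 windows in a row, and the longest gap between neighbouring sites lay there too, 26812895 bp from position 3861780 to 30674675. Empty stretches of 16 windows were found on chromosomes II, from 8000001 to 24000000, and XX, from 1 to 16000000. On chromosome II the last site lay at 4280671, and the windows from 5000001 to 7000000 were empty too. The window from 7000001 to 8000000, with 8 called sites and none with 3 genotypes, was under the limit of 20. In the empty windows 33.9% of called sites were heterozygous in all 12 embryos and 50.6% showed 2 genotypes. In windows that held sites with 3 genotypes these shares were 11.4% and 68.6%. By Mendel's laws, offspring are all heterozygous where the parents are homozygous for different bases, and show 2 genotypes where 1 parent is heterozygous.

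At the other end, the 1 Mb window with the most sites lay on chromosome IX from 18000001 to 19000000 and held 59 of 449 called sites. Relative to called sites the highest value was on chromosome VIII from 1000001 to 2000000, with 16 of 77. The 100 kb window with the most sites lay on chromosome VII from 12800001 to 12900000, where 21 of 68 called sites had all 3 genotypes, in 3 clusters, whereas a window on chromosome XVII from 10600001 to 10700000 had 20 of 29. Grouped at a spacing of 5 kb, the 3668 sites formed 1846 clusters, of which 1007 were single sites and the largest held 20. Sites of a cluster share reads and chromosome copies and are not independent of each other.

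Near the HOXDB genes, the homeobox cluster on chromosome VI that the study examined for spine pattern, no site of this kind lay within 4 kb of any of 3 exonic variants in HOXD11B, HOXD9B and HOXD4B. The cluster fell into the longest gap on chromosome VI, 2030728 bp from position 15847089 to 17877817. The site at 17877817 was the nearest, 94201 bp from the HOXD4B variant, 113153 bp from the HOXD9B variant and 121246 bp from the HOXD11B variant. At the 3 variants only 3 sites in all had a call in every embryo within 4 kb, so that the absence there rests on few sites.

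The division of the embryos into heterozygous and homozygous ones at a site tended to recur at its neighbours, as at linked sites. The 12 genotypes at a site formed 452 different patterns over the 3668 sites. A pattern divides the embryos into those that are heterozygous and those that are homozygous, and 2 patterns were counted as the same split when this division was the same, in either direction. Neighbouring sites within 5 kb had the same split in 99.1% of 1822 pairs, those 5 to 100 kb apart in 97.0% of 1276 pairs, those 100 kb to 1 Mb apart in 83.1% of 532 pairs, and those over 1 Mb apart in 33.3% of 18 pairs. Within 5 kb, 51.0% of pairs had identical genotypes in all 12 embryos, 20.8% had reference and alternate exchanged, and in 27.3% the heterozygous embryos of one site were the homozygous embryos of the other. From 5 to 100 kb this last kind was the most frequent (46.0%).

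The largest set of sites with 1 split lay on chromosome VII, with 184 sites between positions 6072948 and 22639401. They had 4 patterns, with 63, 63, 37 and 21 sites. In the first pattern embryos 1, 5, 7, 8 and 11 were homozygous reference, embryo 10 was homozygous alternate and embryos 2, 3, 4, 6, 9 and 12 were heterozygous. In the second, also with 63 sites, embryos 1, 5, 7, 8, 10 and 11 were heterozygous, embryos 2 and 9 homozygous reference and embryos 3, 4, 6 and 12 homozygous alternate. The other patterns were these with reference and alternate exchanged. Chromosome I followed with 180 sites between 6754529 and 21157293, again in 4 patterns (70, 50, 34 and 26 sites), and chromosome XVII with 131 between 4040118 and 10621997 (52, 29, 27 and 23 sites). Of 156 combinations of chromosome and split, 155 had at most 4 patterns, the number that 4 parental chromosome copies give for 2 bases per site. A split with 4 sites or fewer cannot show more than 4 patterns. Of the 77 combinations with at least 10 sites, 63 had exactly 4 patterns and 1 had over 4. The exception, with 6 patterns over 104 sites, lay on chromosome III between 38107 and 4977880, in 2 blocks of 26 and 78 sites.

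**Figure D3:**
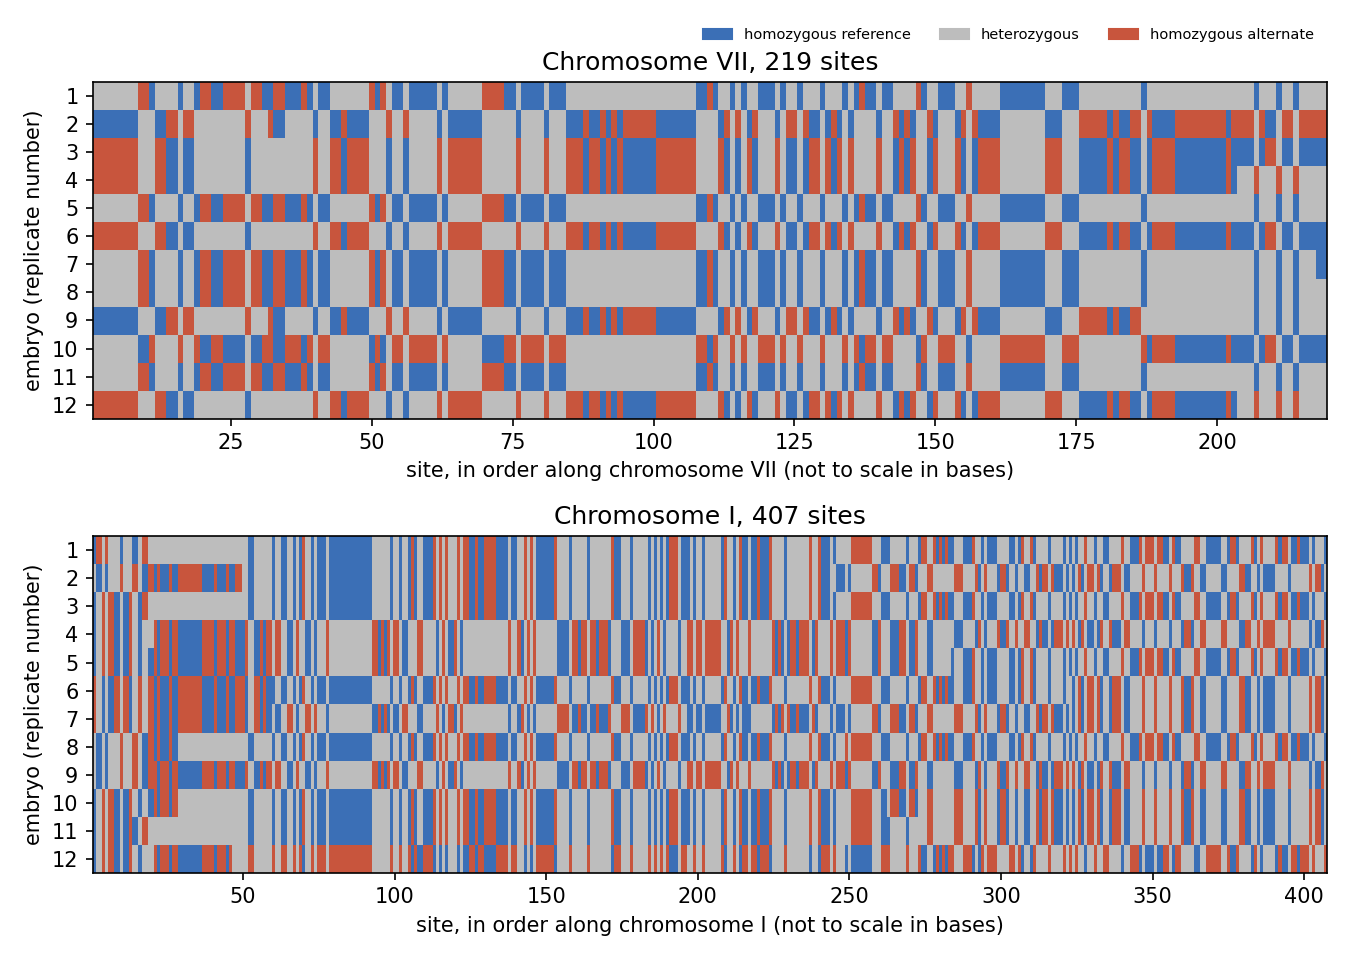
Genotypes of the 12 embryos (rows) at the sites of chromosome VII (219, top) and chromosome I (407, bottom), in order along the chromosome and not to scale. Columns of the same split repeat over long blocks, and towards the right end of chromosome VII first embryos 9 and 10 and then embryos 4 and 12 change sides.

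Along the chromosomes the splits changed mostly in 1 embryo at a time. Consecutive sites with 1 split formed 176 runs, of which 133 had at least 3 sites and together held 3607 of the 3668. The run with the most sites had 153, on chromosome VII from 7693199 to 22639401, and the next had 131, the chromosome XVII set above. Between runs of at least 3 sites there were 100 changes on 19 chromosomes, of which 74 involved 1 embryo, 17 involved 2 and 9 involved 3 or more. Those in 2 embryos take in a departure of only 3 sites on chromosome VII, from 7693071 to 7693110. There embryos 2 and 9 changed sides and changed back by 7693199. Other short departures were counted among the changes too. On chromosome IX embryo 2 changed sides at 4 sites, from 14322866 to 14350582, and changed back after them. On chromosome V embryo 7 did so at 3 sites, from 5452475 to 5452495. The cause of these departures was not tested. Each of the 12 embryos changed sides alone at least 3 times (embryos 1 and 11) and at most 10 times (embryo 2). At 4 single sites the split differed from that of the neighbours on both sides within 100 kb, a count that leaves out adjacent sites that depart together, such as the pair at 1792291 and 1792311 of chromosome IX described below. They lay at position 17075500 of chromosome I, 14892134 of chromosome III, 5922644 of chromosome V and 18890981 of chromosome IX, and differed in 5, 1, 6 and 3 embryos. Their shallowest embryos had 61, 19, 16 and 13 reads. On chromosome V the neighbours compared, at 5922561 and 5922647, themselves departed from the split shared by the sites farther out on both sides.

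Any 2 embryos differed at between 47.5% and 75.1% of the sites, with a median of 62.8% over 66 pairs. No pair of libraries had the same genotypes throughout, so the 12 were counted as separate samples.

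By base change the sites resembled the others. Transitions outnumbered transversions by a ratio of 1.40, against 1.504 at the other sites that varied between embryos and 1.42 over all sites with calls. Changes between A and G made up 29.4% and between C and T 28.9%. Changes between C and G were 12.0%, against 10.7% at the other varying sites, the kind that stood farthest above them.

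Total depth did not by itself set a genotype, although it had a minimum and is the denominator of the share. It was compared between genotypes. For each site a slope was fitted, the log2 change of normalized depth per copy of the alternate base, over all 12 embryos (edgeR quasi-likelihood test, Benjamini-Hochberg adjustment over 52518 tested sites). Depth is given as counts per 1000000 reads at the sites with calls, with TMM normalization (CPM). Of the 3668 sites, 14 passed an adjusted p of 0.05 (0.382%), 5 with higher and 9 with lower depth for the alternate base. The background over all 52518 tested sites was 0.545% (286 called, 119 higher and 167 lower), so that the share among sites with 3 genotypes was near, and not above, that background. At an unadjusted p under 0.05 there were 427 of the 3668 (11.6%) and 6088 of all tested (11.6%). The 14 sites lay on 9 chromosomes in 12 clusters. At all 14 the depths of the 2 kinds of homozygote did not overlap, and at 8 of them the 3 genotypes were in order with no overlap at all. These sites were chosen by the same depths, at 5 a genotype rested on 1 embryo, and overlap was not counted over all 3668. Homozygotes did not overlap either at 22472677 of chromosome I, 2435286 of IV, 10525895 of V and 3910371 of VI, which gave no call. Except on chromosome VI, 1 embryo was the only reference homozygote at these. On chromosome IV each homozygous kind was 1 embryo, so that overlap was not possible.

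The number of calls depended on the tool. DESeq2's Wald test gave no site an adjusted p under 0.05, with 318 of 3668 under an unadjusted 0.05 and 1 call over all tested sites, against 14 with limma. The tools differ in both the dispersion used and the test, and which of these moved the count was not tested. With 1 embryo left out, between 7 and 13 sites with 3 genotypes passed, a count that takes in sites outside the 14. It was 7 without embryo 4 or 8, 8 without embryo 3 or 10, 9 without embryo 1 or 6, and 10 or more without any other. Without embryo 12, 13 passed, although 4229379 of chromosome XVII, 8630433 of chromosome III and 9252135 of chromosome V no longer did.

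The lowest p belonged to a site on chromosome IX at position 1792311, with reference base G and alternate base A. Depth in the 6 reference homozygotes ran from 7.39 over a median of 9.73 to 14.9 CPM, in heterozygous embryos 4 and 7 it was 5.44 and 6.82, and in alternate homozygotes 1, 3, 6 and 11 it was 3.19, 4.03, 3.52 and 3.10. The 3 genotypes did not overlap. Depth fell by 0.77 ± 0.09 on the log2 scale (SE) per alternate copy (adjusted p = 0.000227, edgeR), and stayed under 0.05 without any 1 embryo (highest adjusted p 0.00154). A site 20 bp away at 1792291, with reference A and alternate G, had the opposite genotypes in every embryo and a slope of 0.72 ± 0.09 (adjusted p = 0.000263, edgeR), so that embryos homozygous for G at both positions had the higher depth. In the heterozygous embryos the alternate base took 46.2% of reads at 1792311 and exactly 50% at 1792291, near equality, whereas the log2 ratio of mean depth between alternate and reference homozygotes was -1.56 and 1.44. Of the 7 other sites within 5 kb, none passed, and their slopes ran from -0.51 to 0.55. All 7 had other genotype patterns.

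The genotypes at this pair of sites went against those of linked sites in embryos 5 and 12. The 17 sites before the pair, from 1714370 to 1790909, and the 5 after it, from 1803656 to 1929491, shared 1 split, whereas the pair and a site at 1792249 each departed from it. The pattern at 1792311 differed from that at flanking sites such as 1789404 in embryos 5 and 12 alone, which were heterozygous there and homozygous reference here. At 1792311 they had 230 and 137 reference reads and 1 and 0 alternate reads, and their depth, 14.9 and 10.1 CPM, was above the median of the reference homozygotes. The cause of the difference in genotype was not tested. Without these 2 embryos, an alternative chosen after seeing the data, the slopes were -0.68 ± 0.08 at 1792311 and 0.64 ± 0.08 at 1792291 (adjusted p = 0.0012 at either, edgeR). The other 12 called sites lay in runs of 3 to 131 sites with their own split.

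At position 25173908 of chromosome I (G to A) embryo 12, the only reference homozygote, had 77.3 CPM. The 6 heterozygotes had from 40.9 over 50.8 to 59.7 CPM, and alternate homozygotes 1, 3, 5, 6 and 8 had 33.5, 38.6, 36.6, 33.5 and 30.7. The groups stood in order without overlap. The slope was -0.57 ± 0.08 (adjusted p = 0.00173, edgeR, and 0.0347 without embryo 12). In heterozygous embryos the alternate base took 33.4% of the reads, a log2 ratio of -0.996 beside -1.16 between the homozygotes. None of the 4 other sites within 5 kb passed, and 3 of these had exactly opposite genotypes with slopes between -0.07 and 0.12.

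The site at 15306413 of chromosome XI (G to C) had 9.49, 7.32, 8.24 and 9.67 CPM in reference homozygotes 1, 2, 11 and 12. The 6 heterozygotes had 4.93 to 6.99 CPM with a median of 5.67, and alternate homozygotes 6 and 7 had 3.41 and 3.64. Again no genotype overlapped another. The slope was -0.63 ± 0.10 (adjusted p = 0.0033, edgeR), with a highest adjusted p of 0.0304 without any 1 embryo. The alternate base took 37.5% of heterozygous reads (log2 ratio -0.74, beside -1.30 between homozygotes). The only other site within 5 kb, at 15308601 with opposite genotypes, had a slope of 0.15 ± 0.09 and did not pass (adjusted p = 0.546, edgeR).

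At 1519945 of chromosome XII (G to C) the only reference homozygote, embryo 8, had 6.90 CPM, the 6 heterozygotes 2.25 to 4.65 with a median of 3.90, and alternate homozygotes 2, 4, 5, 6 and 11 had 2.58, 2.27, 2.26, 1.65 and 2.24. Heterozygous embryo 9, at 2.25, lay within the range of the alternate homozygotes. The slope was -0.80 ± 0.13, the steepest of the 14 (adjusted p = 0.00602, edgeR), and the adjusted p was 0.117 without embryo 8. The alternate base took 33.0% of heterozygous reads. In all, 4.52% of raw reads at this site were of low mapping quality, close to the limit of 5%. None of the 3 other sites within 5 kb passed. A site at 1522784 with exactly opposite genotypes had a slope of -0.15 ± 0.13, of the same sign and not the opposite one.

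Position 4720260 of chromosome I (T to G) had 16.6, 14.3 and 13.1 CPM in reference homozygotes 2, 6 and 7. Heterozygotes 1, 3, 8, 10 and 11 had 11.2, 13.2, 11.7, 12.9 and 8.63, and alternate homozygotes 4, 5, 9 and 12 had 7.25, 7.48, 5.74 and 9.52. Heterozygotes overlapped both other groups, in embryo 3 and in embryo 11. The slope was -0.49 ± 0.09 (adjusted p = 0.018, edgeR), and without embryo 2, 4 or 9 the adjusted p was between 0.0549 and 0.0651. A neighbour at 4720547 with the same genotypes had a slope of -0.36 ± 0.16 and one at 4720735 with opposite genotypes 0.16 ± 0.14, and neither passed (adjusted p 0.379 and 0.724, edgeR).

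On chromosome XIV at 4692945 (T to G) depth was higher with the alternate base. Reference homozygotes 3 and 10 had 4.30 and 3.62 CPM, the 6 heterozygotes 4.39 to 7.53 with a median of 5.56, and alternate homozygotes 1, 2, 4 and 5 had 7.85, 8.22, 8.44 and 8.51. The genotypes did not overlap. The slope was 0.53 ± 0.10 (adjusted p = 0.0226, edgeR), and without embryo 3, 4, 5 or 10 the adjusted p was between 0.0537 and 0.101. Of heterozygous reads 73.1% had the alternate base, the highest share among the 14 (log2 ratio 1.44, beside 1.06 between homozygotes). A site 171 bp away with the same genotypes, at 4692774, had a slope of -0.13 ± 0.08, opposite in sign, and an alternate share of 51.5% in heterozygotes. A site at 4692859 with opposite genotypes had a slope of -0.10 ± 0.09 and an alternate share of 40.5%, both in the matching direction. Neither neighbour passed (adjusted p 0.581 and 0.724, edgeR).

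The site at 17051891 of chromosome X (T to C) had 1.59, 2.52, 1.53 and 2.73 CPM in reference homozygotes 4, 7, 8 and 12, 2.34, 2.22, 3.68 and 2.59 in heterozygotes 2, 6, 9 and 10, and 4.31, 4.79, 3.55 and 5.47 in alternate homozygotes 1, 3, 5 and 11. Heterozygotes overlapped both homozygous groups. The slope was 0.58 ± 0.12 (adjusted p = 0.0284, edgeR), and without embryo 3, 4, 8 or 11 the adjusted p was between 0.0723 and 0.086. The alternate base took 60.5% of heterozygous reads.

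On chromosome V, position 6679478 (A to C) had 21.2 CPM in embryo 7, the only reference homozygote. The 8 heterozygotes ran from 13.2 over 15.4 to 16.6 CPM, and alternate homozygotes 1, 5 and 6 had 10.96, 10.3 and 12.2, with no overlap. The slope was -0.46 ± 0.09 (adjusted p = 0.0287, edgeR), and without embryo 1, 5, 6, 7 or 8 the adjusted p was between 0.0572 and 0.143. A site 27 bp away at 6679451 (T to C) with the same genotypes passed too, with a slope of -0.43 ± 0.09 (adjusted p = 0.0428, edgeR). Of the other 12 sites within 5 kb of it, 10 had the same genotypes, and none passed, with slopes from -0.24 to 0.14.

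A second chromosome V site, at 9252135 (G to A) and 2572657 bp farther on, had the same genotypes again. Embryo 7 had 11.9 CPM, the 8 heterozygotes 6.66 over 7.63 to 8.62, and alternate homozygotes 1, 5 and 6 had 5.18, 5.87 and 6.08. The order held without overlap, with a slope of -0.49 ± 0.11 (adjusted p = 0.0432, edgeR), which was above 0.05 without any 1 of the 12 embryos (0.0539 to 0.270). As embryo 7 alone was homozygous for the reference base at these sites, its own depth and that genotype cannot be told apart there. A neighbour of 9252135 with the same genotypes, at 9250972, had a slope of 0.045 ± 0.145. Neither it nor the other site within 5 kb passed.

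The remaining 3 named sites were near the threshold. On chromosome XVII at 4229379 (C to G), reference homozygotes 1, 2 and 10 had 6.73, 5.04 and 4.79 CPM, heterozygotes 5, 6 and 9 had 6.38, 6.25 and 8.92, and the 6 alternate homozygotes ran from 8.50 over 9.24 to 11.7 CPM. The slope was 0.39 ± 0.09 (adjusted p = 0.0389, edgeR), and without embryo 2, 3, 4, 5, 6, 8, 10, 11 or 12 the adjusted p was between 0.0519 and 0.133. The alternate base took 68.2% of heterozygous reads, and a neighbour 97 bp away at 4229282 with the same genotypes had a slope of 0.25 ± 0.09 (adjusted p = 0.229, edgeR). The other site within 5 kb, at 4229886 with opposite genotypes, had a slope of -0.10 ± 0.13 (adjusted p = 0.828, edgeR).

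At 19719662 of chromosome IX (G to T), reference homozygotes 3, 9, 11 and 12 had 2.99, 3.37, 3.62 and 4.13 CPM, heterozygotes 2, 4, 7, 8 and 10 had 4.26, 4.99, 4.01, 3.48 and 4.08, and alternate homozygotes 1, 5 and 6 had 5.95, 6.84 and 6.25. Only the reference homozygotes and the heterozygotes overlapped. The slope was 0.42 ± 0.09 (adjusted p = 0.0426, edgeR), and the adjusted p was between 0.0536 and 0.135 without any 1 embryo other than 8 or 12.

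At 8630433 of chromosome III (C to G), the 6 reference homozygotes ran from 2.39 over 2.996 to 3.28 CPM, heterozygotes 6, 7, 9 and 11 had 1.48, 1.77, 1.93 and 2.504, and alternate homozygotes 2 and 8 had 1.199 and 1.65. The slope was -0.53 ± 0.12 (adjusted p = 0.0427, edgeR), and the adjusted p was between 0.0523 and 0.154 without any 1 embryo other than 11. With 19 to 57 reads per embryo it was the shallowest of the 14, and the alternate base took 33.3% of heterozygous reads.

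**Figure D4:**
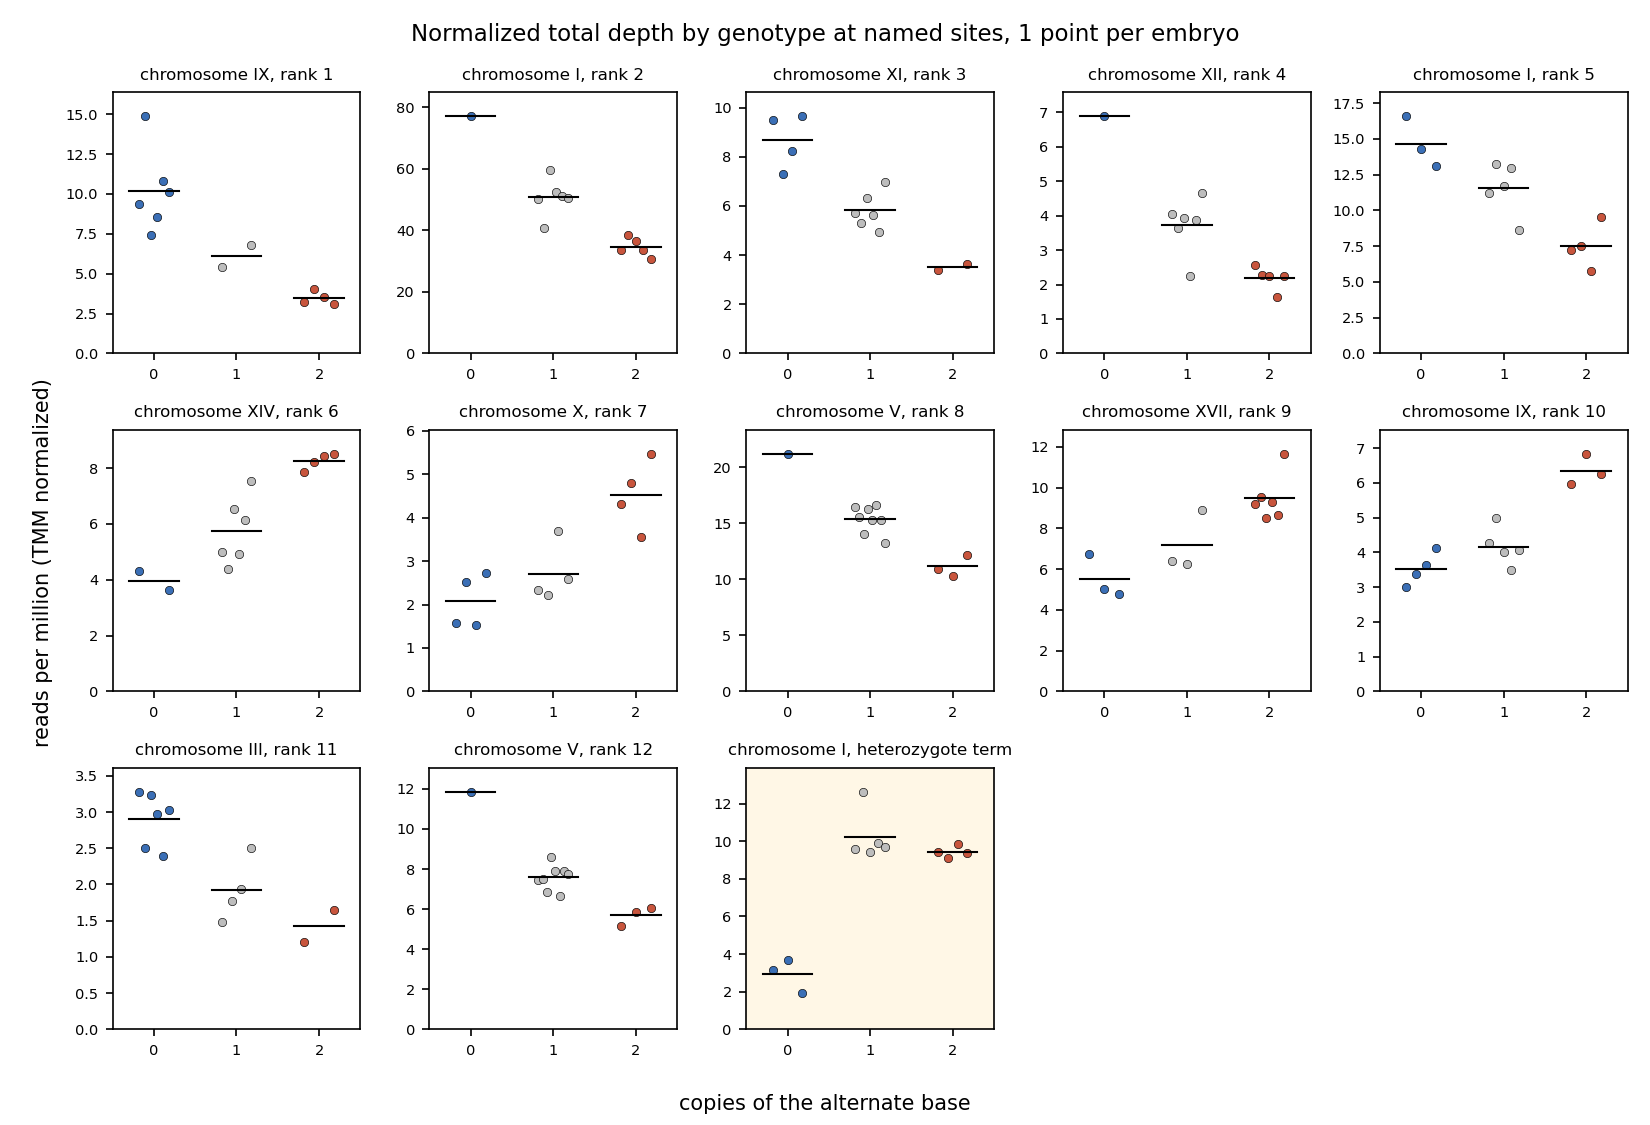
Normalized total depth (y axis, CPM, from 0) of each embryo by copies of the alternate base (x axis) at the 12 named sites of the dosage test, ordered by p, and, shaded, at the chromosome I site of the heterozygote term. Points are embryos and bars group means: at the first site means were 10.2, 6.13 and 3.46 CPM, and at the shaded site 2.94, 10.2 and 9.43.

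Sites with 3 genotypes also show whether heterozygotes lie midway between the homozygotes on the log2 scale. Among the 2455 sites with at least 2 embryos of each genotype, 2 passed for a heterozygote term (0.0815% of those tested), and 124 (5.05%) had an unadjusted p under 0.05. Both lay on chromosome I, 13 bp apart at 4611725 (C to A) and 4611738 (A to C), with the same genotypes, and are 1 observation in effect. At 4611725 reference homozygotes 2, 6 and 7 had 3.18, 3.69 and 1.96 CPM. Heterozygotes 1, 3, 8, 10 and 11 had 9.58, 12.6, 9.41, 9.90 and 9.69, and alternate homozygotes 4, 5, 9 and 12 had 9.40, 9.09, 9.86 and 9.37. Heterozygotes thus overlapped the alternate homozygotes and lay above every reference homozygote. The heterozygote term was 0.95 ± 0.14 on the log2 scale (adjusted p = 0.0091, edgeR, over 2455 sites) and at 4611738 it was 0.91 ± 0.15 (adjusted p = 0.0104, edgeR). Without any 1 embryo the adjusted p at 4611725 was at most 0.0281. The alternate base took 69.4% of heterozygous reads there. The linear slopes of this pair did not pass (adjusted p 0.112 and 0.161, edgeR). The genotypes are those of the site at 4720260, 108535 bp away, where depth fell with the alternate base.

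Over all sites the slopes centred near 0, which does not show that single differences were small, since slopes of opposite sign cancel. The median slope was -0.027 for sites with 3 genotypes, beside -0.025 for the other varying sites and -0.025 for all tested, and slopes ran from -0.97 to 0.98 with a median standard error of 0.13. Slopes were below 0 at 2068 sites (56.4%), beside 54.7% of all tested. The 5% and 95% quantiles of the slopes of sites with 3 genotypes were -0.34 and 0.25. The median of the mean depths was 4.02 CPM in reference homozygotes, 3.997 in heterozygotes and 3.91 in alternate homozygotes. Within each embryo, median depth relative to the site's mean was lower at its alternate than at its reference homozygous sites in all 12, with differences from -0.091 to -0.0044 on the log2 scale and a median of -0.056. The 12 differences are not independent, since each is taken against the mean of the same embryos at the same sites. The heterozygote term had a median of 0.02.

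The allelic ratio within heterozygotes was set beside the depth ratio of the homozygotes at the same 2455 sites. Medians were alike, with a log2 ratio of alternate to reference reads of -0.054 in heterozygotes and a log2 depth ratio of -0.058 between homozygotes. Both ratios count aligned reads, so alternate reads lost in alignment would lower both, which was not tested. The 2 had the same sign at 1583 sites (64.5%), with Pearson's r of 0.44 and Spearman's rho of 0.41 across sites. These describe the sites and carry no test, since sites share embryos, libraries, reads and chromosome copies. With 1 site per cluster, the deepest, r was 0.44 over 1315 sites. Where the allelic ratio was at least 0.5 in size on the log2 scale, 236 sites, 204 (86.4%) had the same sign, a subset chosen after the values were seen and bounded by the heterozygous limits of the rule. Among the 14 called sites 13 had the same sign, and the other, 1792291 of chromosome IX, had a ratio of 0.

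**Figure D5:**
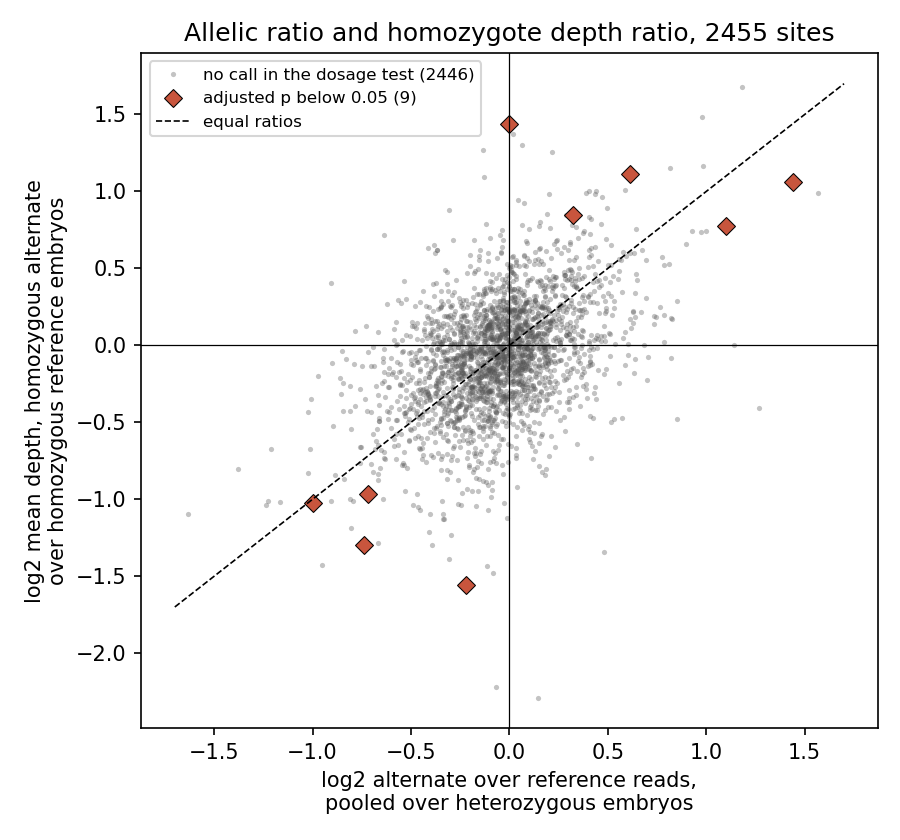
Log2 ratio of mean depth between alternate and reference homozygotes (y axis) against the log2 ratio of alternate to reference reads in heterozygous embryos (x axis) for 2455 sites with at least 2 embryos of each genotype. Diamonds are the 9 with an adjusted p under 0.05 in the dosage test, the dashed line marks equal ratios, and the cloud of the rest leans along it (Pearson's r 0.43 over 2446 sites).

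The deepest site of each chromosome gave no call. Mean depth at these 20 sites ran from 77.1 reads, at 16336616 of chromosome XX, to 8339, at 1714370 of chromosome IX, with a median of 1131. The next deepest were 22472677 of chromosome I (8319 reads), 14275467 of chromosome X (5893), 3570680 of chromosome XIV (5444) and 3559233 of chromosome XVII (3797). Alternate shares in heterozygotes were 44.5% to 52.3% with a median of 48.7%. Slopes ran from -0.14 to 0.14 with standard errors of 0.077 to 0.119, and the lowest adjusted p was 0.509 (edgeR). At the chromosome IX site the share was 48.6% over 8 heterozygous embryos and the slope -0.10 ± 0.09.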

How the data were processed

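Reads were counted by the authors per single-base site and allele with GATK's ASEReadCounter, and the deposited tables hold raw read counts for the reference base, the alternate base, their sum, and reads set aside for low mapping or base quality, on build gasAcu1-4. Per the labels the tools were Trim Galore, cutadapt 2.4, FastQC 0.11.9, STAR, Picard 2.23.4, SAMtools 1.10 and GATK 4.1.4.1, and per the methods of the study, reads were trimmed and aligned in 2 passes. Counts of overlapping reads make neighbouring sites dependent. Reads with the alternate base may align less often, which could affect allelic shares and also total depth, the sum of both bases.

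The tables of the 12 embryos were joined by site and the rule of the report was applied with Python 3, pandas and numpy. The sites, lists and tests were chosen with earlier results of these data known. Total reads were tested with edgeR (limma and DESeq2 as alternatives) on raw counts at the 80156 sites with calls. The trended dispersion was estimated over all of them with an intercept only, the slope was fitted per genotype pattern, and deviances were squeezed over the 52518 tested sites, which had at least 2 embryos outside the commonest genotype. Each standard error was the size of the slope or term divided by the square root of the F statistic of its own edgeR test. The code was tested on simulated data. Replicates are 12 separate embryos.

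Sites named in the text were the deepest of each chromosome, the 12 with the lowest p in the dosage test and the lowest for the heterozygote term (adjusted p under 0.05, at most 1 per 100 kb), sites within 4 kb of the HOXDB variants, those at the limits of the rule, and the 100 kb window with the most sites and the longest gap. Other sites were named after their values were seen. Gene annotation and sequence of this build were not used here, so whether a site is exonic was not analysed here. Alternatives were other limits of the rule, other normalizations and filters, 1 site per 5 kb, and leaving out each embryo.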

Additional observations from a re-analysis of the deposited data

Results flagged for a closer look

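Sites with all 3 calls were also present in sequence that the rule leaves out. On chromosome XIX, the sex chromosome, 273 of 6919 sites with a call in every embryo had all 3 genotypes (39.5 per 1000), and in unplaced sequence 50 of 1179 (42.4 per 1000). They are listed because no comparison above uses these sites, and no control sample was available to set them against. The median of the 20 chromosomes described was 35.6 per 1000.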

How the results depend on the processing

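The 3668 sites became 1996 with more than 30 reads in every embryo, 776 with no read of low mapping quality allowed, and between 2680 and 4309 under the other limits, with 3991 once chromosome XIX and unplaced sequence were included. Leaving out 1 embryo gave 3525 to 3860 sites, and a heterozygous share of 48.1% to 50.2%, which moved by more than the spread between embryos without embryo 7 (48.6%) or 9. The share of heterozygous calls, the median alternate share and the number of empty 1 Mb windows otherwise moved little.

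The number of sites called in the dosage test, 14, became 6 with 1 site per 5 kb, the deepest, which tests fewer sites. The site with the lowest p, 1792311 of chromosome IX, was not kept and so not tested there. The same held for 15306413 of chromosome XI, 1519945 of XII, 4692945 of XIV and 4229379 of XVII. The number called was 0 with DESeq2's Wald test (318 with an unadjusted p under 0.05). Without 1 embryo it was 7 to 13, a count that takes in sites outside the 14. The median slope was -0.019 with 1 site per 5 kb. The 2 sites called for the heterozygote term became 1 with 1 site per 5 kb, which keeps only 1 of the pair, and 2 to 4 without 1 embryo. Over the 12 named sites and this pair, no slope changed sign under any of 255 alternatives, and 77 lost the call, 12 of them with DESeq2. No paired analysis was possible because all embryos belong to 1 group. The median standard error of a slope was 0.13 and the smallest slope called 0.39. The median biological coefficient of variation between embryos was 0.20, and more reads did not always go with a smaller error: the deepest site, on chromosome IX at 1714370, had a standard error of 0.090, and 1792311 there, with 37 to 231 reads, 0.093.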
